A study of Homo sapiens with 14 samples.

Results

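H3K27me3, the trimethylated form of a lysine of histone H3 that marks Polycomb-repressed chromatin, was mapped across the genome of TC-32 cells, an established Ewing sarcoma line. The mark was taken as the bases that lay in the deposited broad peak lists of both H3K27me3 libraries, replicate 1 and replicate 2. It formed 14402 regions on chromosomes 1 to 22 and X (hg38), of 267530 regions in all the peak lists of the series. Together these regions covered 27.4 Mb, or 0.940% of the known bases of those chromosomes. They reached 1870 of 19970 protein-coding gene starts, 9.36% of the total.

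The mark is written by Polycomb repressive complex 2, whose catalytic subunit is EZH2, and it is read by Polycomb repressive complex 1, which compacts the chromatin. It is known for covering CpG-rich starts of genes that specify other cell fates, such as homeobox, GATA and SOX genes, where it helps to keep them silent. Ewing sarcoma is driven by a fusion of EWSR1 with the ETS factor FLI1, and EZH2 is known as a gene that the fusion raises.

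The series holds 14 CUT&RUN libraries of wild-type, untreated TC-32 cells, a method in which an antibody directs a nuclease to cut out the DNA next to its target. H3K27me3 and H3K9me3, a mark of another form of repressed chromatin, were each mapped in 2 libraries of set B, and each list was called against an IgG control library of the same set. H3K27ac, a mark of active chromatin, and FLI1 were mapped in 2 libraries each of set A, and FLI1 again in 2 of set B. What separates set A from set B is not given in the labels. All groups share the same single cell line, and the labels do not say that the replicates came from separate cultures, so the spread between them may be technical. No group lacks the fusion or the Polycomb enzymes, so the lists describe 1 state of 1 line.

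The list of replicate 1 was the longer, with 21461 regions over 49.0 Mb against 16667 regions over 31.4 Mb in replicate 2. Of the bases in replicate 1, 55.9% were also in replicate 2, and of those in replicate 2, 87.1% were also in replicate 1. The authors' fold over IgG had medians of 4.70 and 4.77 in the lists of replicates 1 and 2, and the lowest −log10 q-values were 2.02 and 2.01. The files give no read totals, so the depth is unknown, and a start called unmarked is one where the mark was not detected in both lists.

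Peak lists hold no expression, so the label of the cells could be set only beside marks at marker genes. Over all protein-coding starts, 9.36% had H3K27me3, 10.2% H3K27ac and 35.8% FLI1 in both libraries of set A. Of 10 Ewing sarcoma marker genes, 9 had no H3K27me3 at the start, 7 had a FLI1 peak in both libraries of set A there, and 1, STEAP1, had H3K27ac. The exception was PAX7, a muscle and neural crest regulator, whose whole start window lay in H3K27me3 in both replicates. Of 18 markers of fibroblasts, endothelium, blood and epithelium, 0 carried H3K27me3 and 2, KRT8 and KRT18, carried H3K27ac. The H3K27me3 and H3K27ac counts at the Ewing sarcoma markers are thus near the shares of all starts, and with so few genes they neither bear out the label nor go against it.

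Promoter sequences are shown for 3 starts wholly inside wide H3K27me3 domains and for 1 start without the mark, because the base composition of starts is compared further on. Each is the RefSeq promoter of GRCh38.p14 from 250 bases before to 50 bases after the start, written 5′ to 3′ on the strand of the gene, with every CG dinucleotide in capitals. BHLHE23 (chr20:63006915-63007214, minus strand), a neural bHLH factor, had 38 CG dinucleotides. EN2 (chr7:155457879-155458178, plus strand), a homeobox gene of the midbrain and hindbrain, had 50. HOXA11 (chr7:27185183-27185482, minus strand), a limb and kidney patterning gene, had 13. In all 3 every base lay in the lists of both replicates. STEAP1 (chr7:90154219-90154518, plus strand), a membrane protein of Ewing sarcoma cells, had 27 and no base in either list.
BHLHE23: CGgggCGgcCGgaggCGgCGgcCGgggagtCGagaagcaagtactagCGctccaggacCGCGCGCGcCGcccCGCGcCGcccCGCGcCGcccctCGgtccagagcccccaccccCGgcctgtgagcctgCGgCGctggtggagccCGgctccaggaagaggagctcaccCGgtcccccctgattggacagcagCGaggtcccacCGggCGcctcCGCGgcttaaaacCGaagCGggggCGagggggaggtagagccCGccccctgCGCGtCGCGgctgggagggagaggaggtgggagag
EN2: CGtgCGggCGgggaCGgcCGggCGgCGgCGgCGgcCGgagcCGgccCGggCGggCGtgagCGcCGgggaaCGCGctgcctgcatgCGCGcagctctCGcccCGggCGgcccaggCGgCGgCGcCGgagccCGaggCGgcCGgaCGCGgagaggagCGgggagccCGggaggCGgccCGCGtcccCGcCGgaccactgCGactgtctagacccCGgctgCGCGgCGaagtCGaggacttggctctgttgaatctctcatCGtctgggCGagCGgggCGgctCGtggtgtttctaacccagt
HOXA11: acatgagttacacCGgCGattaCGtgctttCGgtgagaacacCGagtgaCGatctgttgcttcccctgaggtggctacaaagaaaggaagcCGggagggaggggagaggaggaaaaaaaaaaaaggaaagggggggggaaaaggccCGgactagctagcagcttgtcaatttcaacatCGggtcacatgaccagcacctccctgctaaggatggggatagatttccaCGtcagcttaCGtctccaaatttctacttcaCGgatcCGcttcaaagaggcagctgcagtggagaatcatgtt
STEAP1: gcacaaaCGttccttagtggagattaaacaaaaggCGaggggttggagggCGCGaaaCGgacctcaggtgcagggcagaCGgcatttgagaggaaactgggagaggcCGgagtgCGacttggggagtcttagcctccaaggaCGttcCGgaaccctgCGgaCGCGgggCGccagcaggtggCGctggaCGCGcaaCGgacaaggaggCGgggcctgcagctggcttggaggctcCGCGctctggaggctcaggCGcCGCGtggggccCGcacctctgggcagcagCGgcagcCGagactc

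Several microRNA genes known for neural, epithelial or muscle identity lay inside the mark, and their mature sequences are shown with the seed, bases 2 to 8, in capitals. They were chosen after their values were seen, from marked genes only, and other genes of these families are not given. Over all annotated microRNA genes, 84 of 1877 (4.48%) had the mark within 1 kb of the hairpin's start. The whole 2000-base window was covered in both replicates at MIR9-1 and MIR129-2, both neural, at MIR200A, MIR429 and MIR203A, which are epithelial, at MIR375, of endocrine cells, and at the muscle genes MIR1-1 and MIR133A2. MIR200B had 2000 and 1921 bases in replicates 1 and 2, and MIR137, a neural microRNA, had 1531 and 1573. The windows of MIR200A, MIR200B and MIR429 on chromosome 1 overlap, so these are not separate instances. miR-200b-3p and miR-429 share the seed AAUACUG, from which the seed of miR-200a-3p, AACACUG, is distinct.
hsa-miR-9-5p: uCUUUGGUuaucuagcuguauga
hsa-miR-137-3p: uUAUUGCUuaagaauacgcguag
hsa-miR-129-5p: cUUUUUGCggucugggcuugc
hsa-miR-200a-3p: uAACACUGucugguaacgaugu
hsa-miR-200b-3p: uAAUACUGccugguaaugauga
hsa-miR-429: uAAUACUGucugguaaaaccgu
hsa-miR-203a-3p: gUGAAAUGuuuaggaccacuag
hsa-miR-375-3p: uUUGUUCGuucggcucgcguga
hsa-miR-1-3p: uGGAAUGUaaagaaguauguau
hsa-miR-133a-3p: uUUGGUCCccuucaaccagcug

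A gene start was called marked when at least 1 base in both lists lay within 1 kb of it, the start being the outermost one annotated in GENCODE release 44. By that rule 2290 starts (11.5%) were marked in replicate 1 alone and 1957 (9.8%) in replicate 2 alone. Shared bases were present at 1870, while 398 starts were reached by replicate 1 only, 65 by replicate 2 only, and 22 by both lists with no base in common. Most of the window was covered at the typical marked start: the median coverage was 2000 of 2000 bases in replicate 1 and 1551.5 in replicate 2. At 666 starts (3.34% of all) the whole window was in both lists, at 1250 (6.26%) 50% of it or more, and at 1320 (6.61%) the start base itself. Across the 1870 marked starts, the authors' fold of the peak at the start had medians of 5.78 and 5.44 in replicates 1 and 2, and a Spearman correlation between replicates of 0.700. That correlation is a description over genes, which are not independent replicates.

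H3K27ac and H3K27me3 did not meet at gene starts. Of the 1870 marked starts, 0 had a base in both H3K27ac lists within 1 kb, against 11.2% of the unmarked starts and 2033 starts (10.2%) overall. FLI1 in both libraries of set A was present at 38 of the marked starts (2.03%) and at 39.3% of the unmarked, with 35.8% over all starts. The H3K27ac and FLI1 lists of set A were called against other IgG libraries than H3K27me3 was.

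Lists of lineage regulators and signalling ligands had the highest shares of marked starts, though other regulator lists lay below those of neuronal channels and receptors. Of the 54 gene lists examined, 38 lay above the 9.36% of all starts and 11 had no marked start. Among lists of more than 10 genes, neuronal specification factors led, with 22 of 30 genes (73.3%) marked, followed by WNT ligands with 12 of 19 (63.2%) and endoderm regulators with 10 of 17 (58.8%). Ribosomal proteins, replication-dependent histones and the Polycomb subunits themselves had 0. The lists were drawn up with earlier results of these data known, so their shares are descriptions beside the share of all starts.

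**Figure D1:**
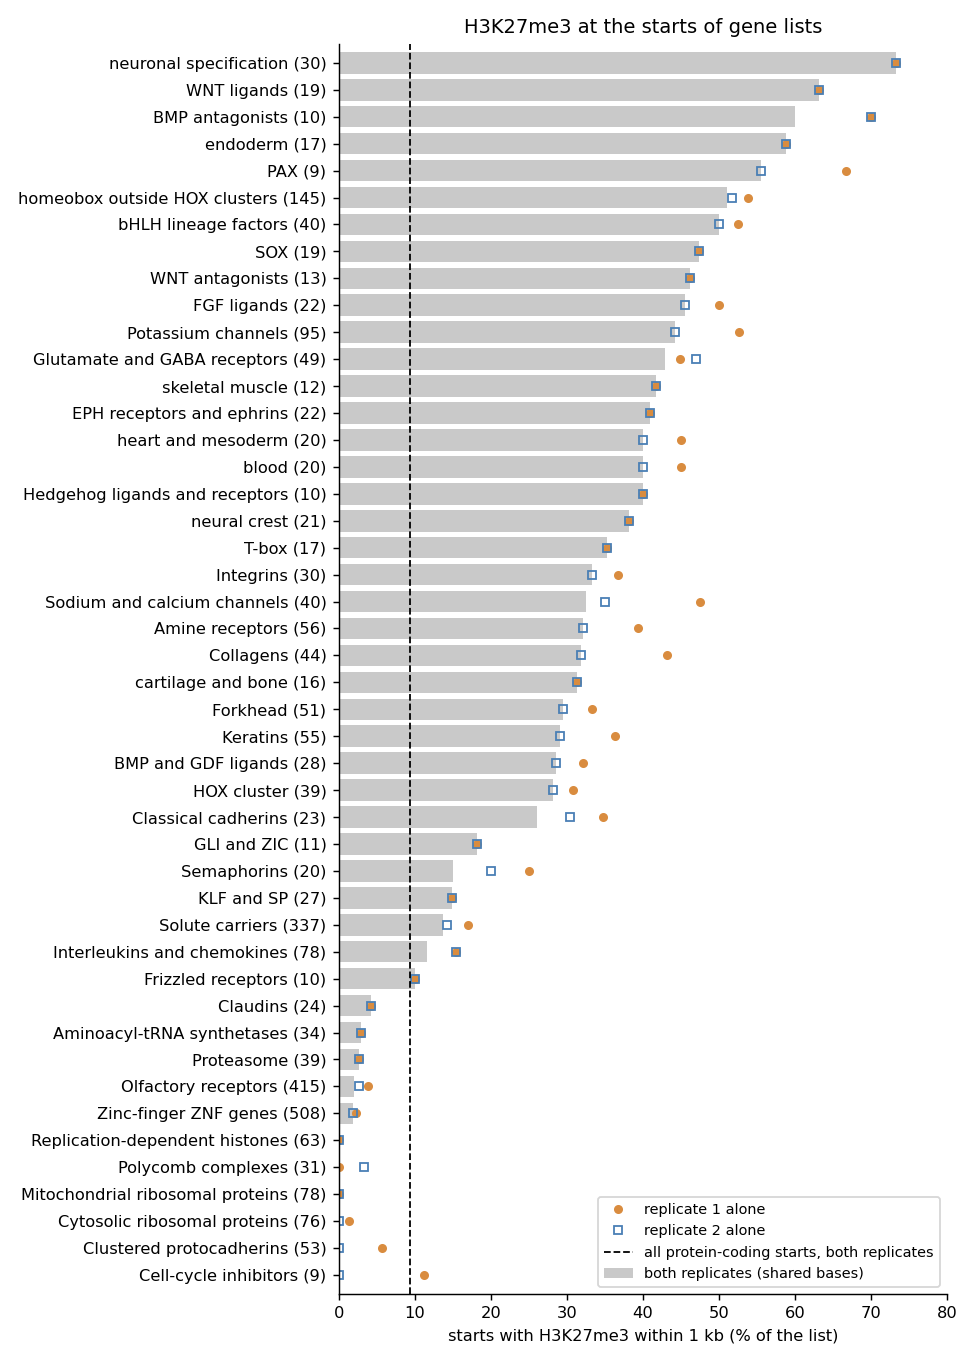
Share of the starts in each gene list with H3K27me3 within 1 kb (horizontal axis, %), for lists of 9 genes or more, with the number of genes in parentheses. Grey bars are bases in both replicates, circles and squares the lists of replicates 1 and 2 alone, and the dashed line is 9.36%, the share over all protein-coding starts. Lineage regulators, signalling ligands and neuronal channels sit to the right of the line and housekeeping lists to its left. The bars named integrins and classical cadherins are genes with ITG and CDH symbols.

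Homeobox genes encode DNA-binding regulators of body plan and cell identity. The lists used here hold 184 of them, without families such as PBX and MEIS. Of these 184 starts, 85 (46.2%) were marked. Their windows were covered over 2000 bases at the median in both replicates, and 51 had the whole window in both lists. Marked homeobox starts lay in wide domains, of 10 kb or more, at 53 of 85 (62.4%), against 386 of 1870 (20.6%) of all marked starts, or 1.93% of all starts. The median width of the domain at the start was 12.9 kb for them and 3.87 kb for all marked starts. Among the families outside the HOX clusters, the LHX genes, LIM-homeobox factors that specify neuron types, were marked at 8 of 8 starts in both replicates. The ONECUT genes, regulators of liver, pancreas and neurons, were marked at 3 of 3. NKX genes were marked at 7 of 14 and IRX genes at 3 of 6.

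Other homeobox families had lower shares. The POU genes, which act in neurons and stem cells, were marked at 5 of 15, which is above the 9.36% of all starts. The DLX genes of forebrain and limb were marked at 1 of 6 (DLX3). The ALX genes of the face and the ZFHX genes were marked at 0 of 3 each, with 1 ALX start in replicate 1 alone. NKX2-2, a neural factor that serves as an Ewing sarcoma marker, had 0 bases in both replicates.

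The 4 HOX clusters, whose genes pattern the head-to-tail axis, differed. In HOXA, 10 of 11 starts were marked, 11 in replicate 1 and 10 in replicate 2, and 49.3% of the cluster's bases were in the mark (63.5% and 52.7% in the replicates alone). HOXA3, HOXA7, HOXA9, HOXA11 and HOXA13 had 2000 of 2000 bases in each replicate. HOXA5 was the start that missed the rule, with 251 bases in replicate 1 and 0 in replicate 2. In HOXD, 1 of 9 starts was marked, HOXD1 with 2000 and 1660 bases, and coverage was 11.5%. HOXB had 0 of 10 marked starts and 0% coverage in each replicate, and HOXC had 0 of 9 and 0.242%.

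In the HOX clusters without a marked start, a few starts held the active mark. H3K27ac lay at 3 of 10 starts in HOXB and at 2 of 9 in HOXC, HOXC9 and HOXC11, and at 0 in HOXA and HOXD. HOXB3 and HOXB6 share an H3K27ac peak of 200 bases, so the 3 HOXB starts are not 3 separate peaks. Over the 39 HOX starts the H3K27ac count was 5 (12.8%), near the 10.2% of all starts. FLI1 peaks of set A lay at 7 HOXB, 5 HOXC, 5 HOXD and 0 HOXA starts, with 35.8% over all starts. HOXD1 had both H3K27me3 and a FLI1 peak of 476 bases inside its window. The other 8 HOXD starts had neither histone mark.

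**Figure D2:**
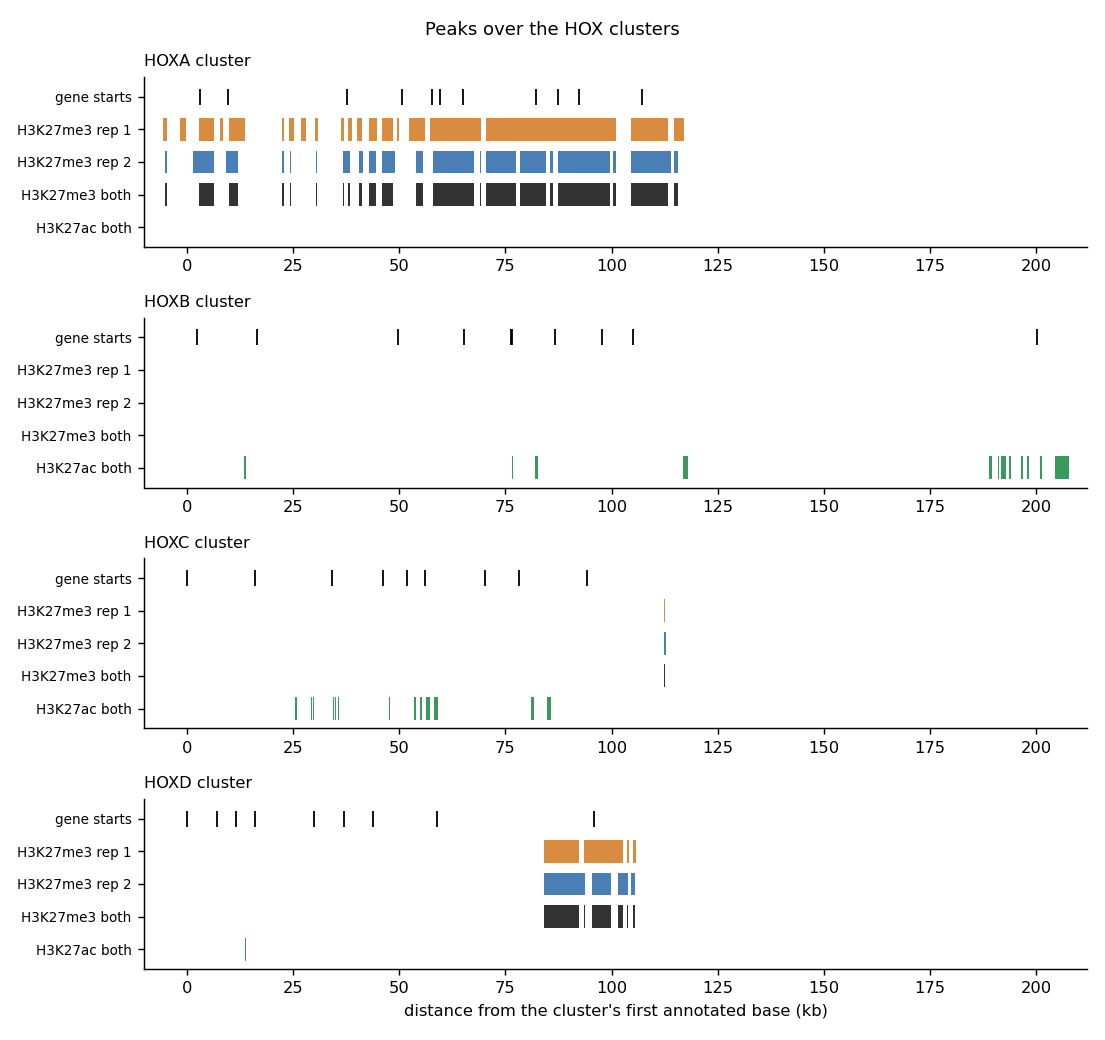
Peaks over the 4 HOX clusters, with distance from the first annotated base of the cluster in kb on the horizontal axis. Ticks are gene starts, and bars are H3K27me3 in replicate 1, replicate 2 and both, and H3K27ac in both of its libraries. H3K27me3 runs through HOXA and over the HOXD1 end of HOXD, with a short peak in HOXC and no peak over HOXB. HOXB and HOXC hold H3K27ac, and HOXD holds a short H3K27ac peak away from its starts.

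The other families of lineage factors were also marked above the share of all starts. GATA factors of blood, heart and gut had 4 of 6 marked starts: GATA3 and GATA5 had whole windows in both replicates, GATA2 2000 and 1480 bases, and GATA6 2000 and 705. PAX genes had 5 of 9 (55.6%), namely PAX1, PAX2, PAX4, PAX6 and PAX7. SOX genes had 9 of 19 (47.4%), and SOX3, SOX8, SOX14 and SOX17 were whole in both replicates. Forkhead genes were lower, with 15 of 51 (29.4%), and T-box genes had 6 of 17 (35.3%), including TBXT and EOMES, regulators of early mesoderm. Of bHLH lineage factors 20 of 40 were marked, among them MYOD1, the muscle determination factor, and NEUROD1, NEUROG2 and OLIG2 of the neural lineages. GLI and ZIC genes had 2 of 11 and KLF and SP genes 4 of 27, all 4 of them SP genes.

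When regulators and marker genes were sorted by lineage, each of the 7 lineage lists held marked starts. The neuronal list, at 22 of 30, gave the same count in each replicate alone. Neural crest factors had 8 of 21 (38.1%), cartilage and bone genes 5 of 16 (31.3%), skeletal muscle genes 5 of 12 (41.7%), heart and mesoderm genes 8 of 20 and blood regulators 8 of 20. In the endoderm list CDX2 and ONECUT1, of gut and liver, were whole in both replicates, PDX1, of pancreas, had 2000 and 1110 bases and FOXA2 2000 and 1897. These lists share members with each other and with the families above, so their counts are not independent of each other.

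The ETS genes FLI1 and ETS1, picked after their values were seen, were marked and EWSR1 was not. Other ETS genes were not counted, so no share of the family can be set beside the 9.36% of all starts. FLI1's own start lay in a domain of 10.8 kb, with 2000 bases in each replicate. ETS1, an ETS factor of endothelium and lymphocytes, had 1444 and 346 bases, so its call rests on a short shared stretch. The start of EWSR1, from which the fusion is transcribed, had 0 bases of H3K27me3 in both replicates and 400 bases of H3K27ac.

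Among secreted signals, most WNT ligands and few Frizzled receptors were marked. WNT ligands had 12 of 19 marked starts, with whole windows in both replicates at 10, among them WNT3A, WNT7B and WNT10A. Frizzled receptors, which bind them, had 1 of 10, FZD10 with 1077 and 1111 bases. WNT antagonists had 6 of 13 (46.2%), including SFRP1, SFRP2 and SFRP5. The difference between ligands and receptors was not tested, and the Frizzled count of 10.0% is near the 9.36% of all starts.

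FGF ligands had 10 of 22 marked starts (45.5%), FGF3, FGF4, FGF5 and FGF9 whole in both replicates. BMP and GDF ligands had 8 of 28 (28.6%), and BMP antagonists 6 of 10, with CHRD in a domain of 28.3 kb. The 3 Hedgehog ligands were all marked: IHH had 2000 and 2000 bases, SHH 2000 and 1838, and DHH 1417 and 1497. HHIP, which binds and limits Hedgehog ligands, had 2000 in replicate 1 and 200 in replicate 2, so its call rests on a short shared stretch. The other 6 genes of that list, receptors and transducers, were not marked. EPH receptors and ephrins had 9 of 22 (40.9%) and semaphorins 3 of 20 (15.0%), of which 1 had the mark at the start base itself.

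Genes of excitable cells were marked at many starts. Potassium channels had 42 of 95 (44.2%), 50 in replicate 1 and 42 in replicate 2. KCNK3, a background channel that dampens excitability, lay in a domain of 38.3 kb. Glutamate and GABA receptors had 21 of 49 (42.9%), with GABRD, GRIN1 and GRIN2A whole in both replicates. Sodium and calcium channels had 13 of 40 (32.5%), 19 in replicate 1 and 14 in replicate 2, and amine receptors 18 of 56 (32.1%). Solute carriers as a whole had 46 of 337 (13.6%). Among them the transporters of noradrenaline (SLC6A2) and dopamine (SLC6A3) were whole in both replicates, and that of serotonin (SLC6A4) had 2000 and 242 bases.

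Genes of the cell surface and matrix were uneven. Collagens had 14 of 44 (31.8%), among them COL2A1 of cartilage, and cadherins with CDH symbols 6 of 23 (26.1%). The list of ITG symbols had 10 of 30 (33.3%). Besides integrins it held ITGB1BP1, ITGB1BP2, ITGB3BP and ITGBL1, of which ITGBL1 was marked. Claudins, the proteins of tight junctions, had 1 of 24, CLDN9. Clustered protocadherins, which give neurons surface identity, had 0 of 53, with 3 in replicate 1 alone. Keratins had 16 of 55 (29.1%): the type II genes, on chromosome 12, were marked at 16 of 26 and the type I genes at 0 of 29, with 1 in replicate 1 alone. With peaks of −log10 q of at least 4 only 3 of 55 keratins (5.45%) were marked, below the 5.81% of all starts at that setting. KRT5, of basal epithelium, had 1436 and 622 bases.

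Lists below the share of all starts included housekeeping genes and large tandem families. Zinc-finger ZNF genes had 9 of 508 (1.77%) and H3K27ac at 56, and olfactory receptors 8 of 415 (1.93%) with H3K27ac at 0. Cytosolic ribosomal proteins had 0 of 76, mitochondrial ribosomal proteins 0 of 78 and replication-dependent histones 0 of 63. In the proteasome list the 1 marked start of 39 was PSMA1, at its outermost annotated start, 123 kb from the nearest of the starts that carried H3K27ac. The subunits and partners of the Polycomb complexes had 0 of 31 marked in both replicates. The cell-cycle inhibitors, of which CDKN2A is a known Polycomb target, had 0 of 9, and CDKN1C had 731 bases in replicate 1 and 0 in replicate 2. With so few genes, this count cannot be told apart from the 9.36% of all starts. With whole peaks that overlapped by 50% it was 1 of 9 (11.1%), against 9.68% of all starts.

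Marked starts were richer in CpG than unmarked ones. The median number of CpG in the 2 kb window was 120 at marked and 88 at unmarked starts, and 139 where the whole window was marked. When all starts were grouped by the ratio of observed to expected CpG, 2.74% were marked in the class up to 0.2, 7.42% up to 0.4, 9.90% up to 0.6, 10.9% up to 0.8 and 12.3% above it. Replicates 1 and 2 alone gave 5.91% and 3.22% in the lowest class and 14.1% and 12.6% in the highest. H3K27ac went from 0.957% to 14.4% over the same classes. The 300-base RefSeq promoters of which examples are printed above differed less, with a median of 24 CG at 1373 marked and 22 at 13942 unmarked starts, and 20 or more at 61.3% and 56.4%. BHLHE23 and EN2 are thus above the marked median and HOXA11 below it, and STEAP1, with no mark, is above it.

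Along the genome, the mark was a large number of short regions and a small number of wide domains that held much of it. The 14402 regions had a median width of 927 bases, and the widest was 70691 bases. Regions up to 3 kb apart were joined into 8921 domains, of median width 1858 bases. Domains of 10 kb or more numbered 832, 9.33% of all, and held 45.5% of the marked bases. The 227 domains of 20 kb or more held 22.8% and the 28 of 50 kb or more 6.22%. At the other end, the 3262 domains under 1 kb were 36.6% of the domains and 5.44% of the mark. Without joining, regions of 10 kb or more held 18.4%, so the share depends on how gaps are treated.

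**Figure D3:**
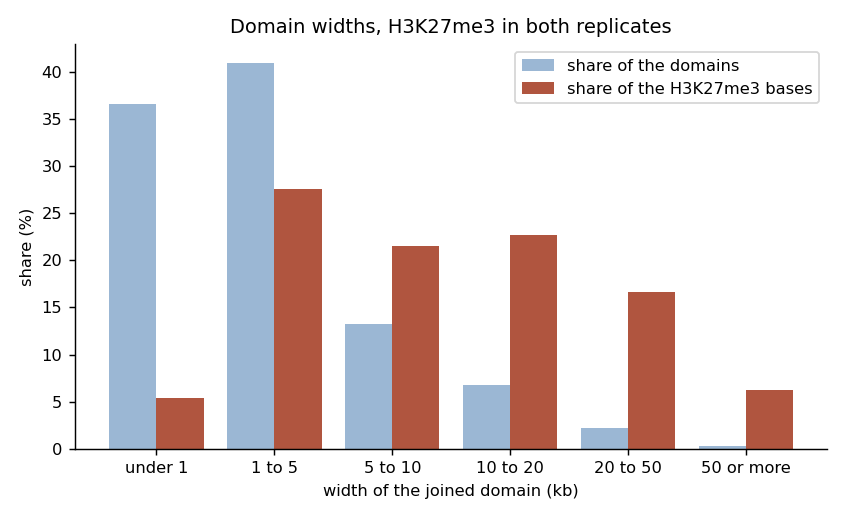
Widths of the 8921 joined H3K27me3 domains in classes (horizontal axis, kb), with the share of domains and the share of marked bases in each class (vertical axis, %). Domains under 1 kb are 36.6% of the domains and hold 5.44% of the bases, and those of 10 kb or more hold 45.5%.

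The widest domain, 112 kb, lay over the start and 5′ part of PRDM16, a regulator of brown fat and blood stem cells (chr1:3054627-3166770), and 92.8% and 92.0% of it were in the lists of replicates 1 and 2. BHLHE23 followed among domains with a protein-coding start, with 91.7 kb, and PLCH2, a phospholipase, with 88.7 kb. The domain of CNPY1 was 84.0 kb, and its own start had 726 and 349 bases. GATA5 shared a domain of 77.8 kb with RBBP8NL, in which 100% and 99.0% of the bases were in the lists of replicates 1 and 2. SOHLH1, a germ-cell factor, shared 76.1 kb with LCN9 and the potassium channel gene KCNT1. The 20 widest with a start also included EN2 (56.6 kb), IRX4 (56.0 kb), UNCX (49.2 kb) and LMX1B (45.7 kb), homeobox genes of brain, heart, skeleton and limb. Other genes among the 20 were C14orf180 (66.4 kb), CBFA2T3 (62.2 kb), NTNG2 (59.2 kb) and LSP1 (55.9 kb). FGD5 and C1QTNF8 (52.3 kb each), KRTAP5-5 (51.5 kb) and RBFOX3 (48.05 kb) were also among them. UTF1, of embryonic stem cells, shared 49.1 kb with the homeobox gene VENTX, and the HOXA11 domain of 47.2 kb held 7 marked starts.

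Most wide domains held no protein-coding start. Of the 832, 325 (39.1%) had a start inside them. The widest without a start were 110 kb inside RBFOX3 (chr17:79093029-79202739), the gene of the neuronal nuclear antigen NeuN, and 99.1 kb over the 3′ part of PRDM16 and past its end. A domain of 86.1 kb (chr20:62511936-62598036) overlapped no protein-coding gene and held MIR1-1 and MIR133A2, whose sequences are given above. One of 63.5 kb on chromosome 11 held the start of H19, an imprinted long noncoding RNA, where 2000 bases were covered in each replicate. Over all long noncoding RNA genes, 1094 of 18756 starts (5.83%) were marked.

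A few long genes were covered over most of their bodies. Of the 3661 protein-coding genes of 100 kb or more, PRDM16 had the highest share of its body in the mark, 77.4% (85.5% and 79.0% in replicates 1 and 2), and RBFOX3 was next, with 71.3% (84.0% and 74.8%). CFAP77 had 55.4% and TMEM179 54.4%, and all other long genes were below 50%. CBFA2T3 (49.7%), KIF1A (47.6%) and EFR3B (45.0%) came next. Lower still were DSCAML1, a neural adhesion molecule, with 43.7%, SORCS2, a neuronal sorting receptor, with 40.1%, and PTPRN2, of secretory granules, with 31.9%. Genes that rank between these are not named. Over the genome 53.0% of the marked bases lay in protein-coding gene bodies, which make up 44.7% of it. Within 1 kb of a start lay 8.85% of the mark (1.26% of the genome), and more than 50 kb from any start 37.0% (63.1%). Marked bases were 55.3% G or C against 40.9% in the genome and held 29.0 against 10.0 CpG per kb.

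Coverage differed between chromosomes. It was highest on chromosome 20, at 2.24% (3.84% and 2.53% in replicates 1 and 2), followed by 22 (2.05%), 17 (1.99%), 11 (1.72%) and 1 (1.56%). It was lowest on X, at 0.257% (0.515% and 0.309%), then on 21 (0.381%) and 13 (0.399%). The highest was 8.72 times the lowest, and 5.89 times the lowest autosome. X was the lowest and 20 the highest in each replicate and under every alternative tried. The order was alike in the replicates, with a Spearman correlation of 0.988 over 23 chromosomes.

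Coverage of bases and of starts did not follow each other closely. Over the 23 chromosomes, the covered share of bases had a Spearman correlation of 0.764 with GC content and of 0.688 with starts per Mb, and of 0.362 with the share of starts marked. These are descriptions, and the chromosomes share 2 libraries. Chromosome 18, of whose bases 0.487% were covered, had 13.5% of its starts marked, near the 13.7% of chromosome 20, and 21 had 4.09% and X 7.22%. The copy number of each chromosome in TC-32 is not in the files, and its part in these values was not tested.

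**Figure D4:**
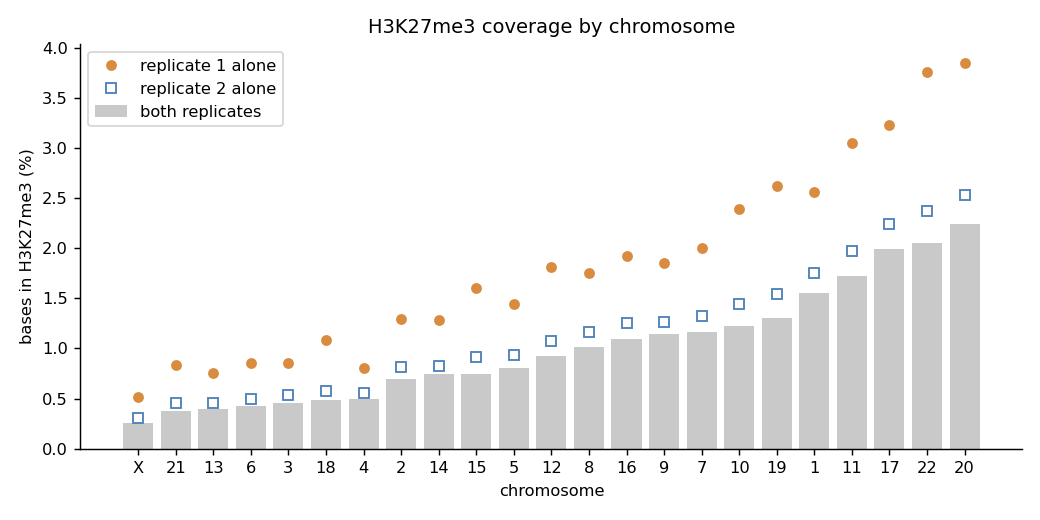
Share of the known bases of each chromosome in H3K27me3 (vertical axis, %), in order of the share in both replicates (grey bars), with the lists of replicates 1 and 2 alone as circles and squares. X is lowest at 0.257% and chromosome 20 highest at 2.24%, and replicate 1 is above replicate 2 on each chromosome.

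The mark gathered towards chromosome ends. The outer 5 Mb at both ends of each chromosome make up 7.59% of all positions, unknown bases included, and held 36.8% of the mark. Coverage of all positions there was 4.38% (6.78% and 4.83% in replicates 1 and 2), and it was 0.393% (0.750% and 0.460%) more than 40 Mb from an end. Of the 46 end zones, 5 hold no known base, the first 5 Mb of chromosomes 13, 14, 15, 21 and 22. Counted over known bases only, the outer 5 Mb are 6.96% of the sequence, covered at 4.97% (7.70% and 5.48%), against 0.407% beyond 40 Mb. Gene starts showed less of this, with 12.4% marked in the outer 5 Mb and 8.58% beyond 40 Mb. Wide domains were placed the most unevenly: 24.1% of all domains, 42.2% of those of 10 kb or more and 24 of the 28 of 50 kb or more lay within 5 Mb of an end. PRDM16, GATA5, BHLHE23 and SOHLH1 are among these.

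The ends themselves differed widely. The first 5 Mb of chromosome 1, with PRDM16 and PLCH2, were covered at 18.9%. The last 5 Mb of chromosome 7, with EN2, were covered at 15.7%, those of chromosome 8 at 14.9% and those of chromosome 20 at 13.9%. The last 5 Mb of chromosome 4, by contrast, were covered at 0.0122% and the first of chromosome 3 at 0.146%. GC content and gene density also vary along chromosomes, and their part in this pattern was not tested.

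**Figure D5:**
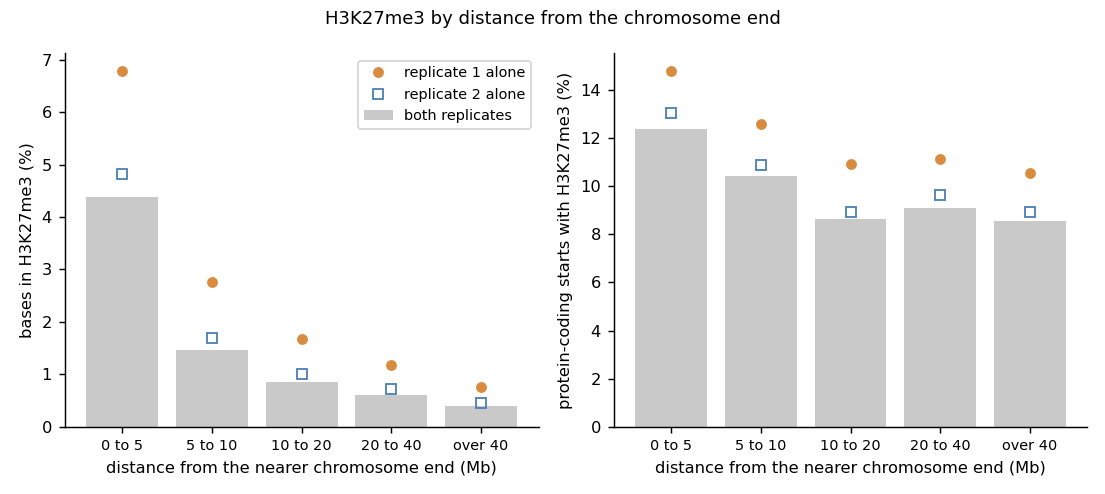
Share of all positions in H3K27me3, unknown bases included (left, %) and share of protein-coding starts marked (right, %) by distance from the nearer chromosome end in Mb. Bars are both replicates, circles and squares replicates 1 and 2 alone. Base coverage goes from 4.38% in the outer 5 Mb to 0.393% beyond 40 Mb, and marked starts from 12.4% to 8.58%.

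H3K9me3, the other repressive mark of set B, was compared with H3K27me3 on 3 measures. H3K27me3 reached 11.5% and 9.80% of protein-coding starts in its replicates, and H3K9me3 2.60% and 1.52%. Of the H3K27me3 bases, 31.9% and 35.4% lay within 5 Mb of a chromosome end, against 11.7% and 13.1% for H3K9me3. In both measures the libraries of the marks did not overlap. The differences were 8.57 and 21.2 percentage points, and an exact two-sided permutation test over the 4 libraries gave p = 0.333 for each (0.5 after Benjamini-Hochberg adjustment over 3 tests), the smallest that 2 against 2 allows. Median region widths were 1142 and 936 bases for H3K27me3 and 988 and 1089 for H3K9me3, and overlapped (difference 0.5 bases, exact permutation p = 1). The marks share their IgG libraries by replicate number, a pairing that this permutation test does not use, so the values are descriptions side by side.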

How the data were processed

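CUT&RUN libraries of TC-32 cells were used through their deposited peak lists. Per the submitters' processing notes, cutadapt 4.4, Bowtie2, Picard 2.17.11 and MACS2 2.1.1 were used with GRCh38 (hg38), and the file names record that duplicates were removed and that every library had its peaks called singly, with the same-numbered IgG of its set as control. Each peak carries a deposited fold, the authors' ratio of signal to IgG, and as significance the authors' −log10 p-value and −log10 q-value. These describe peaks within a list only.

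Overlapping peaks of a list were merged, and 1 peak of replicate 2 off chromosomes 1 to 22 and X was left out. Starts and gene bodies came from GENCODE release 44, sequences from RefSeq. Windows reached 1 kb to either side of a start. Domains were joined across gaps of up to 3 kb. Overlaps were checked on made-up intervals with known answers (0 mismatches in 10150 comparisons, 300 of 300 planted starts found). Most genes named are those of the 20 widest domains with a start or the members of a list with the widest regions. Where few members carry or lack the mark, those could be named too. Names outside this rule were chosen after their values were seen. Examples are the microRNAs, FLI1, ETS1, EWSR1, the long genes and list members such as SLC6A2, SLC6A3, SLC6A4, WNT10A, GRIN2A and KRT5. The members and lists were chosen with earlier results of these data known. Marks were compared with exact permutation tests. Python 3.11.15, numpy 2.4.6, pandas 2.3.3, scipy 1.17.1 and matplotlib 3.10.9 were used. A few genes are not reported here. Read totals and spike-in counts were not analysed here.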

Additional observations from a re-analysis of the deposited data

How the results depend on the processing

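The marked bases (27.4 Mb) ranged from 31.4 to 49.0 Mb when either replicate was left out. They were 53.0 Mb when bases in either list counted, 41.6 Mb with whole peaks that overlapped by 50% of the shorter, and 16.4 Mb with peaks of −log10 q of at least 4. The share of starts (9.36%) ranged from 9.80% to 11.5% with a replicate left out. It was 11.8% with either list, 5.81% with the stricter q, 6.61% at the start base, 6.26% with 50% of the window, 11.5% within 5 kb and 10.9% with any transcript start. The share of the listed homeobox starts (46.2%) ranged from 46.7% to 48.9% with a replicate left out. Under the same settings, in the same order, this share was 49.5%, 38.0%, 35.9%, 35.3%, 52.2% and 48.4%. It was above the share of all starts in each. Taking the canonical transcript's start, added after the data were seen, gave 9.83% and 47.3%, and the coverage of chromosome ends over known bases was also added then.

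The share in wide domains (45.5%) ranged from 45.7% to 49.5% with a replicate left out. It was 51.5% with either list, 49.3% with whole peaks, 18.4% without joining, 71.6% with gaps of up to 10 kb joined, 67.0% for domains from 5 kb and 22.8% from 20 kb. X ranged from 0.309% to 0.515% and was 0.567% with either list, 0.388% with whole peaks and 0.171% with the stricter q. Chromosome 20 ranged from 2.53% to 3.84%, with 4.13% for either list, 3.30% for whole peaks and 1.42% for the stricter q. Of the 54 gene lists, 7 changed side of the share of all starts in some setting: cell-cycle inhibitors, Ewing sarcoma markers, Frizzled receptors, interleukins and chemokines, keratins, semaphorins and blood markers.

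For the difference from H3K9me3, a replicate block that paired libraries by number, which share an IgG library, left the value at 8.57 percentage points (exact sign-flip p = 0.5, the smallest for 2 pairs). Leaving out 1 library gave 7.74 to 9.41. Depth limits every absence, since the lists hold no read totals.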

Other observations

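Some marked starts stood side by side. Of the 1870, 152 were in 31 runs of 4 or more neighbouring protein-coding starts that were all marked. Starts that lie close together can share a domain, so the members of a run are not independent. The longest, 9 starts over 92.1 kb, went from HOXA6 to EVX1, a homeobox gene next to the HOXA cluster. A run of 8 on chromosome 12 held keratin genes from KRT6B to KRT73, and a run of 8 on chromosome 2 held WNT6, WNT10A, the serotonin-neuron factor FEV and IHH. Kallikrein genes KLK9 to KLK14 stood in a run of 7 on chromosome 19. On chromosome 11, IGF2, INS, TH and ASCL2 stood in a run of 6, where IGF2 had 2000 and 1102 bases and INS 2000 and 1220 in replicates 1 and 2. The stress ligands ULBP1, ULBP2 and ULBP3 stood in a run of 6 on chromosome 6.

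At 12 genes, H3K27me3 lay at 1 or more annotated starts and H3K27ac at another. Over all protein-coding genes, 2168 of 19970 (10.9%) had H3K27me3 at any protein-coding transcript start. Genes with several annotated starts were not counted, so whether 12 is many or few cannot be told. KANK1, an actin regulator, had H3K27ac at 8 of its 14 distinct starts and H3K27me3 at 4, and the nearest pair was 182 kb apart. In RBMS3, an RNA-binding protein, 5 of 7 starts had H3K27ac and 1 had H3K27me3. PDE4B, LEPR, ASTN2 and FEZ1 were others. The smallest distance between such a pair was 6.02 kb, in LEMD1.

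Among the marked long noncoding RNAs, HOTTIP, transcribed from the HOXA13 end of HOXA, had 2000 and 1941 bases in replicates 1 and 2.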
